A study of Homo sapiens with 16 samples.

Results

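The genes described here act where glucose enters the cell and at the first controlled steps of glycolysis. They are the transporters *SLC2A1*, *SLC2A3*, *SLC2A6* and *SLC2A10*, the hexokinases *HK1* and *HK2*, the bifunctional enzymes *PFKFB2*, *PFKFB3* and *PFKFB4*, and *TIGAR*. They were chosen by name for their place in the pathway, with earlier results of these data known. All 10 were listed in both deposited tables, among 14108 genes listed in either table (13559 in one experiment and 14024 in the other).

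Glucose crosses the membrane through facilitative transporters of the SLC2A (GLUT) family, and a hexokinase phosphorylates it, which keeps it in the cell. The PFKFB enzymes make and break the fructose bisphosphate that activates phosphofructokinase, the main control point of glycolysis, and TIGAR degrades this signal. Several of these genes are textbook targets of the hypoxia-inducible factors (HIF), and tumor cells, glioblastoma included, are known for a high uptake of glucose.

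RNA was sequenced from LN229, an established human glioblastoma (GBM) cell line, in 16 libraries that form 8 groups of 2. In the first experiment, untreated cells were kept in regular culture (complete medium and normal oxygen) or in ischemic culture, a mimic of ischemia that combines low nutrients (glucose, glutamine and serum) with hypoxia. In the second, cells in regular or in ischemic culture received DMSO, which is the solvent control, VX745, an inhibitor of the kinase p38α, or MK25, an inhibitor of MK2, a kinase that p38α activates. The comparisons ask how the culture changes these genes and whether either inhibitor alters that change. Each inhibitor is 1 compound, and both are compared with the same DMSO libraries, so their effects are not independent of each other. The labels do not say that replicates came from separate cultures, so the p-values measure the spread between these libraries, which may be technical. In RNA from a whole culture, fewer cells of a type and less RNA per cell cannot be told apart.

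Between 20122017 and 37562668 reads lay on the listed genes of a library. In the second experiment the ischemic libraries held 27239609 to 37562668 reads and the regular libraries 20122017 to 30228774, ranges that overlap. The 10 most abundant genes held 5.66% to 6.32% of the reads in these ischemic libraries and 4.23% to 4.51% in the regular libraries, and the part of this in the results was not tested. All 8 astroglial and glioma markers checked were listed, with a summed 4027 to 4414 CPM in regular and 5818 to 7138 CPM in ischemic libraries of the second experiment, where 2 rose (*VIM* and *EGFR*) and 3 fell (*SOX2*, *NES* and *OLIG2*) with DMSO, at a median log2 difference of −0.39 over the 8. In untreated cells 2 rose and 5 fell, at a median of −0.82. By the same criteria, given below, 18.1% of all genes rose and 17.9% fell with DMSO. In untreated cells these shares were 21.3% and 20.2%. The markers of endothelium (0 of 3) and epithelium (0 of 3) were not listed. Of the leukocyte markers only *CD68* was listed (1 of 4), at 30.3 to 38.5 CPM in regular and 52.8 to 64.4 CPM in ischemic libraries of the second experiment, without *PTPRC*, *CD14* and *CD3E*. Of the neuronal markers 2 of 3 were listed, with a summed 17.6 to 22.6 CPM in regular and 45.9 to 67.2 CPM in ischemic libraries, without *RBFOX3*. Their part in the results was not tested.

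Promoters are shown for *HK2*, *PFKFB4* and *SLC2A1*, the 3 with the largest log2 differences between the cultures, untreated and with DMSO, among the members with a promoter entry, because HIF binds a short core in DNA. Windows of 250 bases before the start of transcription were taken from RefSeq (GRCh38.p14), which held 16 windows for 8 of the 10 members. *SLC2A3* and *PFKFB2* had no entry. The cores ACGTG and GCGTG were searched on both strands, so a palindrome of the first counts on each strand and its matches overlap. At least 1 core occurred in 9 of the 16 windows, which belong to 7 members, and in 43.2% of all 35116 windows (18.5% for ACGTG and 32.2% for GCGTG). A match is a description of letters and not a bound site. Capitals mark the cores, read 5′ to 3′ on the strand of the gene. The windows lie at chr2:74833877-74834126 and chr2:74834920-74835169 (both plus strand) for *HK2*, at chr3:48556804-48557053 (minus strand) for *PFKFB4* and at chr1:42958869-42959118 (minus strand) for *SLC2A1*.
HK2 window 1: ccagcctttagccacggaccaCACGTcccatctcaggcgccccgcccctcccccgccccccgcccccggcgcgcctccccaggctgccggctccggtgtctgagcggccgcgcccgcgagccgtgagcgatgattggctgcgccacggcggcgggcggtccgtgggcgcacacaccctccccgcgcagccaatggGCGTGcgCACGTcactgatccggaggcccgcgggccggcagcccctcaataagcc
HK2 window 2: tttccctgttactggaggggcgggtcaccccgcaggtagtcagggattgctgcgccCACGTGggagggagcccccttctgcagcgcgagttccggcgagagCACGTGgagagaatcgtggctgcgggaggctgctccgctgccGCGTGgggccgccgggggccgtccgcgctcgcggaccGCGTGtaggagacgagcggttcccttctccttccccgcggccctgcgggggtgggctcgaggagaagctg
PFKFB4: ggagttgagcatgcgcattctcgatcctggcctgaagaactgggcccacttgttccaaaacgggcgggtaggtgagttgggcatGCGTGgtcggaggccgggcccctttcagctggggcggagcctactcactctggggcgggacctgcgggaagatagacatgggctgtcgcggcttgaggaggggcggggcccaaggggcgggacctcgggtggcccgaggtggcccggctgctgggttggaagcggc
SLC2A1: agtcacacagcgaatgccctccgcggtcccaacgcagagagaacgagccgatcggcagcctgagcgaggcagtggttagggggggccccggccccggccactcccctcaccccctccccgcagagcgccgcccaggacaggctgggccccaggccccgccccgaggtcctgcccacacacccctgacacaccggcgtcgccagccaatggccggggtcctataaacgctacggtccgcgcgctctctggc
The windows of *HK2* held 3 and 6 matches, that of *PFKFB4* held 1 and that of *SLC2A1* held 0. Of the windows not shown, those of *PFKFB3* held 1 and 2, those of *SLC2A10* and *TIGAR* held 1 each, that of *SLC2A6* held 3, and 6 of the 7 of *HK1* held 0 and the other 1. Members that rose and members that did not both held cores, and a link between cores and the culture was not tested. No match says only that these letters are absent from this window.

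Ischemic culture raised 7 of the 10 genes in each of the 4 settings in which the cultures were compared (untreated, DMSO, VX745 and MK25). These were *SLC2A1*, *SLC2A3*, *SLC2A10*, *HK1*, *HK2*, *PFKFB3* and *PFKFB4*. A gene was called when its adjusted p was under 0.05 and its fold change at least 1.5, and values are deposited log2 CPM (normalized read counts per library size). Among all genes, 21.3% were called higher and 20.2% lower in untreated ischemic cells, 18.1% and 17.9% with DMSO, 18.5% and 14.5% under VX745, and 17.7% and 15% under MK25. The members called lower were 2 of 10 in untreated cells (*SLC2A6* and *TIGAR*) and 0 of 10 in each of the other settings. The median log2 difference of the members was 1.64 in untreated cells and 1.40 with DMSO, while that of all genes was −0.01 in both. Each table has its own normalization, and levels are compared only inside it.

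**Figure D1:**
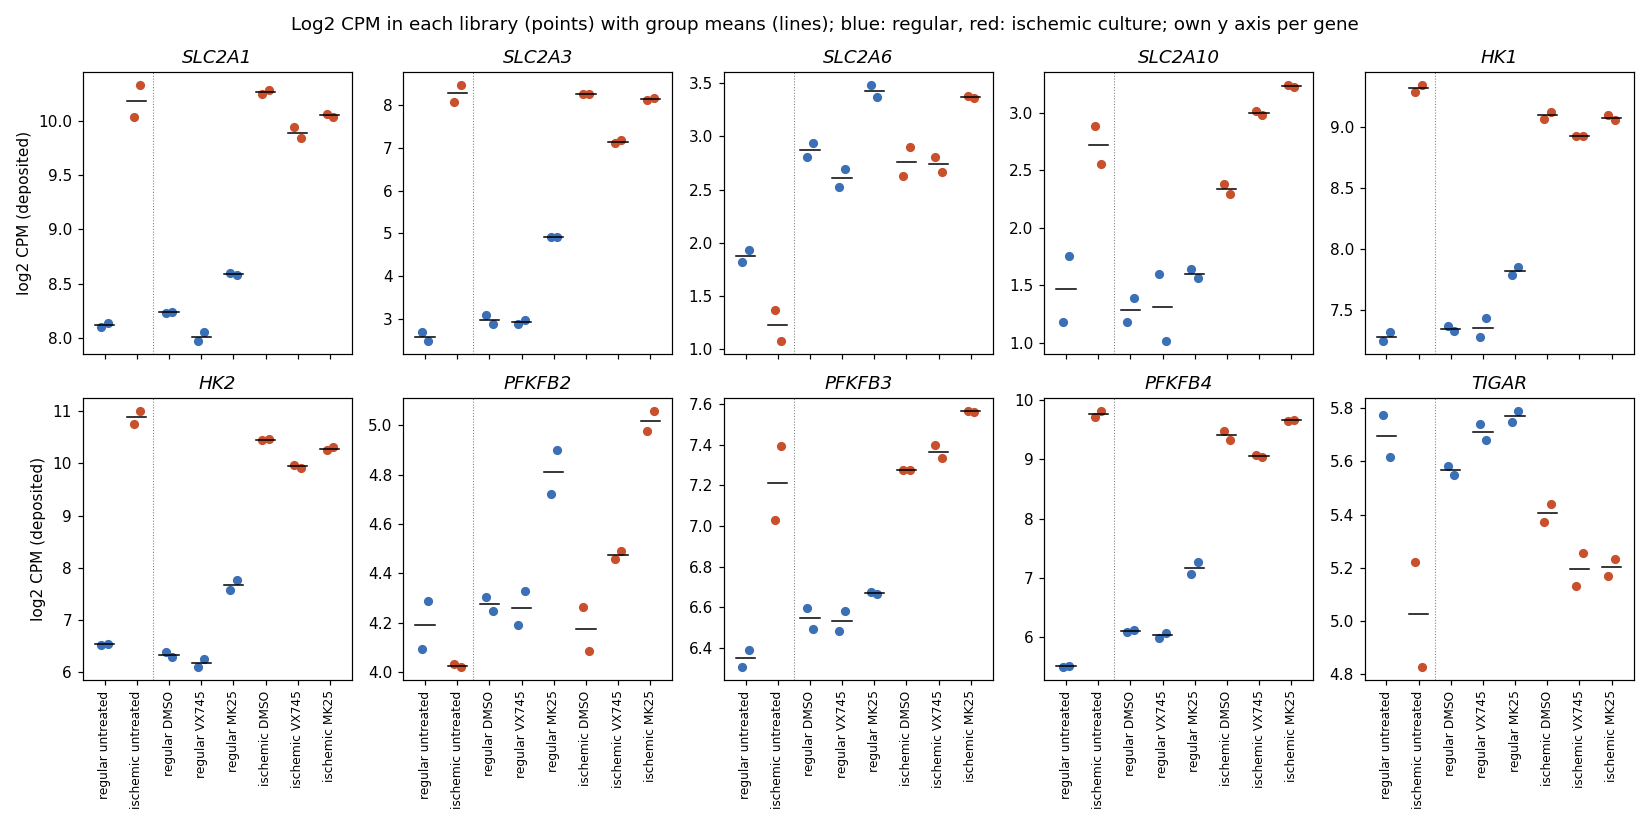
Deposited log2 CPM of each gene (vertical axis, own scale per panel) in each library of the 8 groups (horizontal axis, first experiment left of the dotted line). Points are libraries, lines are group means, and the ischemic libraries of SLC2A1, SLC2A3, HK1, HK2, PFKFB3 and PFKFB4 lie above every regular library of the same experiment, while SLC2A6 and PFKFB2 are not separated by culture in the second experiment.

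Among the transporters, *SLC2A3* (GLUT3, a transporter of high affinity known from neurons; identifier 6515, chromosome 12, 7919230 to 7936187 of GRCh38) had the widest range of the members, with 5.34 between its lowest and highest group mean in the second experiment. Untreated regular libraries were at 2.68 and 2.48 log2 CPM, and untreated ischemic libraries at 8.08 and 8.49. The groups did not overlap, and the log2 difference was 5.70 (SE 0.12, adjusted p = 1.93e-12), a 52.1-fold rise. With DMSO the libraries were at 3.08 and 2.87 in regular and 8.26 and 8.27 in ischemic culture, a log2 difference of 5.29 (SE 0.07, adjusted p = 1.26e-19). Its near-identical copy *SLC2A14* was in neither table, and how reads shared by both genes were counted is not given, so the level of *SLC2A3* is uncertain to that extent.

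*SLC2A1* (GLUT1, the transporter of basal uptake in many cells; identifier 6513, chromosome 1, 42925353 to 42958868) was higher per kilobase of the longest transcript than any other member in all 8 groups. This rank depends on the length used. With all exons joined (6614 bases, against 3384 in the longest transcript), *HK2* was above *SLC2A1* in each ischemic group. *SLC2A1* stood at 8.10 and 8.13 log2 CPM in regular and 10.04 and 10.34 in ischemic untreated libraries. The ischemic libraries were the higher in both experiments, by 2.07 (SE 0.09, adjusted p = 1.15e-09) on the log2 scale without treatment and by 2.04 (SE 0.05, adjusted p = 1.43e-15) with DMSO, where the libraries were at 8.23 and 8.24 and 10.25 and 10.29. These are rises of 4.20-fold and 4.10-fold.

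The other transporters were expressed at low levels. *SLC2A10* (GLUT10; identifier 81031, chromosome 20, 46708320 to 46736347) held between 44 and 347 reads per library. It was at 1.18 and 1.39 log2 CPM in regular and 2.38 and 2.29 in ischemic libraries with DMSO, a log2 difference of 1.05 (SE 0.17, adjusted p = 3.70e-05), and rose by 1.26 (SE 0.21, adjusted p = 1.77e-04) in untreated cells. *SLC2A6* (GLUT6, a transporter found on lysosomes; identifier 11182, chromosome 9, 133471094 to 133479099) held between 43 and 380 reads. In untreated cells it was at 1.82 and 1.94 in regular and 1.37 and 1.08 in ischemic libraries, a log2 difference of −0.65 (SE 0.20, adjusted p = 0.0111). That call was lost without ischemic replicate 2 (−0.51), regular replicate 1 (−0.71) or regular replicate 2 (−0.59). With DMSO the groups of *SLC2A6* overlapped (2.81 and 2.94 against 2.63 and 2.90), and the interval of the log2 difference was −0.38 to 0.15.

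Of 12 further hexose transporters looked for, 2 were listed in the first table and 3 in the other. Only *SLC2A13*, a transporter of inositol, was called in a comparison of cultures, with a log2 difference of 0.69 (SE 0.12, adjusted p = 2.52e-04) in untreated cells.

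Both hexokinases rose, *HK2* by more. *HK2* (the inducible hexokinase of muscle and many tumors; identifier 3099, chromosome 2, 74834127 to 74893359) was at 6.52 and 6.54 log2 CPM in regular and 10.76 and 11.01 in ischemic untreated libraries. The log2 difference was 4.36 (SE 0.08, adjusted p = 7.65e-13), a 20.5-fold rise. With DMSO the libraries were at 6.37 and 6.28 and 10.44 and 10.46, which is a log2 difference of 4.12 (SE 0.07, adjusted p = 1.75e-18). The cultures were far apart in both experiments, with no overlap.

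*HK1* (the hexokinase of most tissues; identifier 3098, chromosome 10, 69270000 to 69401882) stood at 7.25 and 7.32 log2 CPM in regular and 9.28 and 9.34 in ischemic untreated libraries. It rose by 2.03 (SE 0.07, adjusted p = 9.97e-11) on the log2 scale, a 4.07-fold rise, and by 1.74 (SE 0.06, adjusted p = 3.04e-14) with DMSO (7.37 and 7.33 against 9.07 and 9.12). Of 6 other sugar kinases and related genes looked for, 2 were listed. *HKDC1*, a further hexokinase, rose by 3.86 (SE 0.30, adjusted p = 2.11e-07) in untreated cells and by 3.77 (SE 0.38, adjusted p = 1.02e-07) with DMSO.

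The PFKFB enzymes moved unequally with the culture. *PFKFB4* (identifier 5210, chromosome 3, 48517684 to 48563136) was at 5.49 and 5.51 log2 CPM in regular and 9.71 and 9.82 in ischemic untreated libraries, a log2 difference of 4.26 (SE 0.07, adjusted p = 2.21e-13) and a 19.2-fold rise. With DMSO it was at 6.09 and 6.12 and 9.48 and 9.33, a log2 difference of 3.30 (SE 0.07, adjusted p = 3.26e-17). The cultures did not overlap in either experiment.

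*PFKFB3*, whose enzyme strongly favours synthesis of the activator (identifier 5209, chromosome 10, 6144921 to 6326637), rose less. It was at 6.31 and 6.39 log2 CPM in regular and 7.03 and 7.39 in ischemic untreated libraries, a log2 difference of 0.86 (SE 0.10, adjusted p = 7.78e-06), and the difference was 0.73 (SE 0.06, adjusted p = 3.18e-09) with DMSO. *PFKFB2*, known as the heart form (identifier 5208, chromosome 1, 207034416 to 207081027), was not called. It stood at 4.09 and 4.29 against 4.03 and 4.02 in untreated libraries, and the interval of the log2 difference was −0.40 to 0.07 there and −0.29 to 0.09 with DMSO.

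*TIGAR* (identifier 57103, chromosome 12, 4321213 to 4360028) fell in untreated ischemic cells and was not called in the other settings. It was at 5.77 and 5.62 log2 CPM in regular and 5.22 and 4.83 in ischemic untreated libraries, a log2 difference of −0.67 (SE 0.12, adjusted p = 2.26e-04) that was no longer called without ischemic replicate 2 (−0.47). With DMSO the difference was −0.16 (SE 0.07, adjusted p = 0.0383), from libraries at 5.58 and 5.55 and 5.37 and 5.44, which is short of the fold criterion and had an adjusted p of up to 0.199 with a library left out, above 0.05 in 4 of 4 cases. Under the inhibitors it was −0.52 (SE 0.07, adjusted p = 2.08e-06) for VX745 and −0.57 (SE 0.07, adjusted p = 6.45e-07) for MK25, also short of it.

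Under the inhibitors the culture still raised the same 7 genes, by amounts that can be set beside those with DMSO. *SLC2A3* was at 2.88 and 2.97 log2 CPM in regular and 7.12 and 7.18 in ischemic libraries with VX745, a log2 difference of 4.23 (SE 0.07, adjusted p = 3.75e-18). With MK25 it was at 4.91 and 4.91 and 8.12 and 8.17, a difference of 3.23 (SE 0.07, adjusted p = 2.03e-16). The cultures were separate with either inhibitor.

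*HK2* rose by 3.78 (SE 0.07, adjusted p = 9.04e-18) on the log2 scale with VX745 and by 2.63 (SE 0.07, adjusted p = 1.93e-15) with MK25, where its regular libraries were at 7.56 and 7.75 and its ischemic libraries at 10.26 and 10.31. *PFKFB4* rose by 3.03 (SE 0.07, adjusted p = 1.36e-16) with VX745 and by 2.49 (SE 0.07, adjusted p = 4.07e-15) with MK25. For *SLC2A1* the difference was 1.89 with VX745 (7.97 and 8.05 against 9.94 and 9.85 log2 CPM) and 1.47 with MK25 (8.60 and 8.58 against 10.07 and 10.04). The regular libraries with MK25 lay above those with VX745 for each of these genes.

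*SLC2A10* rose by 1.69 (SE 0.17, adjusted p = 1.53e-07) with VX745 and by 1.64 (SE 0.17, adjusted p = 2.34e-07) with MK25, from regular libraries at 1.60 and 1.02 and 1.64 and 1.56 log2 CPM. These rises were not shown to differ from that with DMSO, since the adjusted p of the interaction was 0.101 and 0.0937. *PFKFB3* rose by 0.83 and 0.90, and *HK1* by 1.57 and 1.25. *PFKFB2* differed by 0.21 (SE 0.09, adjusted p = 0.0417) with VX745 and 0.21 (SE 0.09, adjusted p = 0.0463) with MK25, short of the fold criterion, and each had an adjusted p above 0.05 in 3 of 4 cases with a library left out (up to 0.258 and 0.342).

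**Figure D2:**
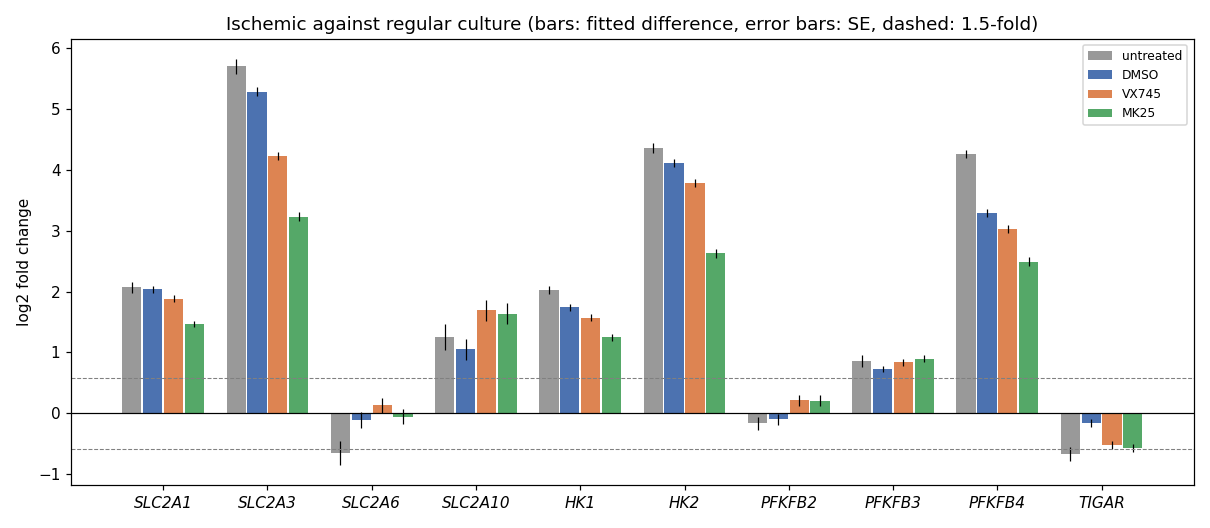
Log2 fold change of ischemic against regular culture (vertical axis) for each gene (horizontal axis) in untreated, DMSO, VX745 and MK25 cells, with fitted differences as bars, standard errors as error bars and 1.5-fold as dashed lines. For SLC2A3 the bars stand at 5.29 with DMSO and 3.23 with MK25 in the second experiment, and at 5.70 in untreated cells of the first.

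Most enzymes after hexokinase also rose. Of 18 such genes, 16 were listed, and 15 rose and 1 fell in untreated cells, 14 rose with DMSO, 14 with VX745 and 10 with MK25. In the same comparisons 21.3%, 18.1%, 18.5% and 17.7% of all genes rose. The median log2 difference of the 16 with DMSO was 1.21. *ALDOC*, an aldolase, rose by 4.72 (SE 0.14, adjusted p = 3.84e-11) in untreated cells, *ENO2*, an enolase, by 4.32 (SE 0.08, adjusted p = 7.65e-13) and *PGK1*, a phosphoglycerate kinase, by 2.41 (SE 0.07, adjusted p = 4.02e-11). *PFKM*, the muscle form of phosphofructokinase, was the 1 that fell, by 0.61 (SE 0.08, adjusted p = 3.11e-05). *G6PC3*, the only one of 4 opposing phosphatases listed, was called in no comparison.

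Among 8 regulators of these steps, 3 rose and 2 fell both in untreated cells and with DMSO. Among all genes 21.3% rose and 20.2% fell in untreated cells, and 18.1% and 17.9% with DMSO. With DMSO, *TXNIP*, an inhibitor of glucose uptake, fell by 3.88 (SE 0.09, adjusted p = 1.69e-16) on the log2 scale. *EPAS1*, which encodes HIF2α, rose by 2.44 (SE 0.09, adjusted p = 1.62e-13), and *MYC* by 1.93 (SE 0.08, adjusted p = 7.64e-13).

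In untreated cells and with DMSO, the culture also changed which hexokinase and which PFKFB enzyme held the largest share of its family. Levels of different genes were compared as CPM per kilobase of the longest annotated transcript, and a share is the mean ± SD of 2 libraries. A family here holds only the members. *HKDC1* and the other listed hexose transporters are not in its sum. *HK2* held 25.9% ± 0.439 of the summed hexokinase level in regular and 64.6% ± 0.403 in ischemic culture with DMSO. The share was 29.6% ± 0.452 and 67.9% ± 2.03 in untreated cells, so *HK2* passed *HK1* in both experiments.

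*PFKFB4* held 45.7% ± 1.62 of the summed PFKFB level in regular and 84.0% ± 0.889 in ischemic culture with DMSO, while the share of *PFKFB3* went from 48.0% ± 1.55 to 14.9% ± 0.917. Both shares nearly met in the regular DMSO libraries, at 44.5% to 46.8% for *PFKFB4* and 46.9% to 49.1% for *PFKFB3*. *SLC2A3* went from 1.90% ± 0.209 to 15.9% ± 0.124 of the summed level of the member transporters. *SLC2A1* held the rest of that sum but for small amounts, with 95.2% ± 0.0140 and 83.3% ± 0.0858. In the level itself, *HK2* was at 14.3 ± 0.620 CPM per kilobase in regular and 249 ± 2.04 in ischemic culture with DMSO, and *HK1* at 40.8 ± 0.838 and 137 ± 3.52.

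**Figure D3:**
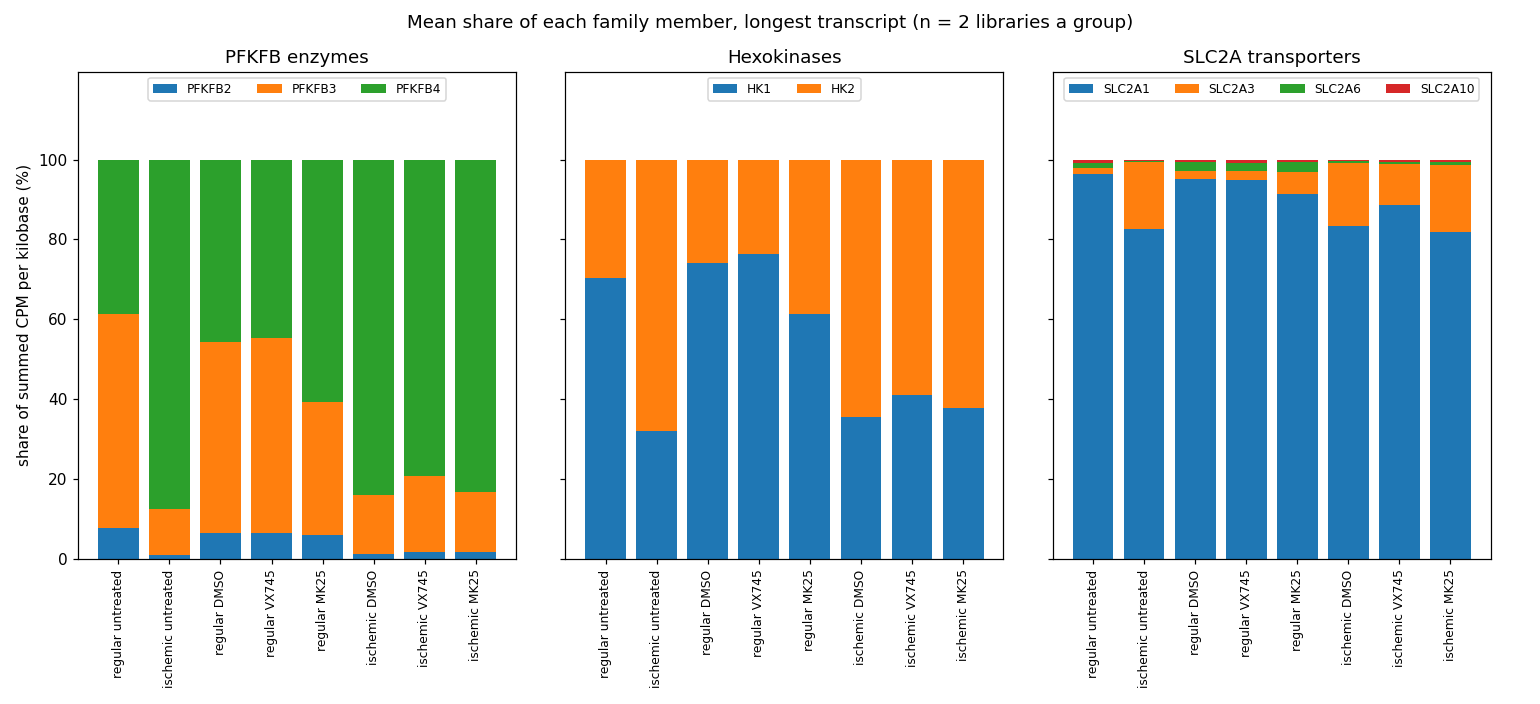
Mean share of each gene in the summed CPM per kilobase of the members of its family (vertical axis, percent) in the 8 groups (horizontal axis). The families are PFKFB enzymes, hexokinases and SLC2A transporters, with 2 libraries a group. HK2 holds at least 59.0% of the hexokinase level in each ischemic group and at most 38.8% in the regular groups, with lengths of the longest transcript.

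In ischemic culture VX745 lowered *SLC2A3* and raised *SLC2A10*, so 1 member was called lower and 1 higher, while 4.35% of all genes were called higher and 0.906% lower. *SLC2A3* was at 7.12 and 7.18 log2 CPM with VX745 and 8.26 and 8.27 with DMSO. The groups were separate, with a log2 difference of −1.11 (SE 0.07, adjusted p = 2.33e-08), which is 2.17-fold lower. *SLC2A10* was at 3.02 and 2.98 against 2.38 and 2.29, a log2 difference of 0.66 (SE 0.17, adjusted p = 0.00863) that was no longer called without ischemic DMSO replicate 2 (0.62), without ischemic VX745 replicate 1 (0.65) or after quantile normalization (0.50).

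A further 6 members passed the adjusted p in this comparison without reaching the fold criterion, and 28.9% of all genes passed it at any fold change. *HK2* was at 9.98 and 9.91 with VX745 and 10.44 and 10.46 with DMSO, a log2 difference of −0.51 (SE 0.07, adjusted p = 3.71e-05). The difference was −0.37 for *SLC2A1*, −0.35 for *PFKFB4*, −0.21 for *TIGAR*, −0.17 for *HK1* and 0.30 for *PFKFB2*. After quantile normalization these moved to −0.24 (adjusted p = 0.0204) for *HK2*, −0.085 (adjusted p = 0.245) for *SLC2A1*, −0.094 (adjusted p = 0.349) for *PFKFB4* and 0.035 (adjusted p = 0.691) for *HK1*. With a library left out the adjusted p was above 0.05 in 4 of 4 cases for *HK1*, 3 of 4 for *TIGAR* and 3 of 4 for *PFKFB2* (up to 0.195, 0.231 and 0.173). After quantile normalization the split of called genes was 62.6% higher, against 82.8% with the deposited values.

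In regular culture VX745 changed no member by these criteria (0 of 10 by limma, with 0.0642% of all genes called higher and 0.0357% lower, and 0 of 10 at any fold change, against 0.335% of all genes). At an unadjusted p under 0.05, 4 of the 10 passed, as did 14.8% of all genes, and voom on the recovered reads called 0. *SLC2A3* was at 2.88 and 2.97 log2 CPM with VX745 and 3.08 and 2.87 with DMSO, and the interval of the log2 difference was −0.20 to 0.09. The groups of *SLC2A3*, *HK1*, *PFKFB2*, *PFKFB3* and *SLC2A10* overlapped. The difference of the VX745 effect between the cultures was itself tested as an interaction, which was called lower for *SLC2A3* (1 of 10, with 2.35% of all genes called higher and 0.734% lower). Its log2 value was −1.06 (SE 0.10, adjusted p = 1.02e-05).

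MK25 raised members in regular culture. *SLC2A3*, *HK2* and *PFKFB4* were called higher (3 of 10) and 0 of 10 lower, while 1.88% of all genes were called higher and 0.606% lower. *SLC2A3* was at 4.91 and 4.91 log2 CPM with MK25 and 3.08 and 2.87 with DMSO, a log2 difference of 1.93 (SE 0.07, adjusted p = 2.55e-12) and a 3.82-fold rise. *HK2* was at 7.56 and 7.75 against 6.37 and 6.28, a log2 difference of 1.33 (SE 0.07, adjusted p = 1.60e-10). For these genes both MK25 libraries lay above both DMSO libraries, and below every ischemic library.

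*PFKFB4* was at 7.07 and 7.26 log2 CPM with MK25 and 6.09 and 6.12 with DMSO in regular culture, a log2 difference of 1.06 (SE 0.07, adjusted p = 4.10e-09). A further 4 members passed the adjusted p alone, which 12.2% of all genes passed at any fold change, with log2 differences of 0.55 for *SLC2A6*, 0.54 for *PFKFB2*, 0.47 for *HK1* and 0.36 for *SLC2A1*. That of *SLC2A6* had an adjusted p of 0.0653 without regular MK25 replicate 1. Of the 16 enzymes after hexokinase, 4 were called higher in the same comparison, as were 1.88% of all genes. The 4 enzymes were *ALDOC* at 2.25, *ENO2* at 1.34, *PGK1* at 0.71 and *LDHA* at 0.65. *EPAS1* rose by 0.92 (SE 0.09, adjusted p = 1.84e-06).

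**Figure D4:**
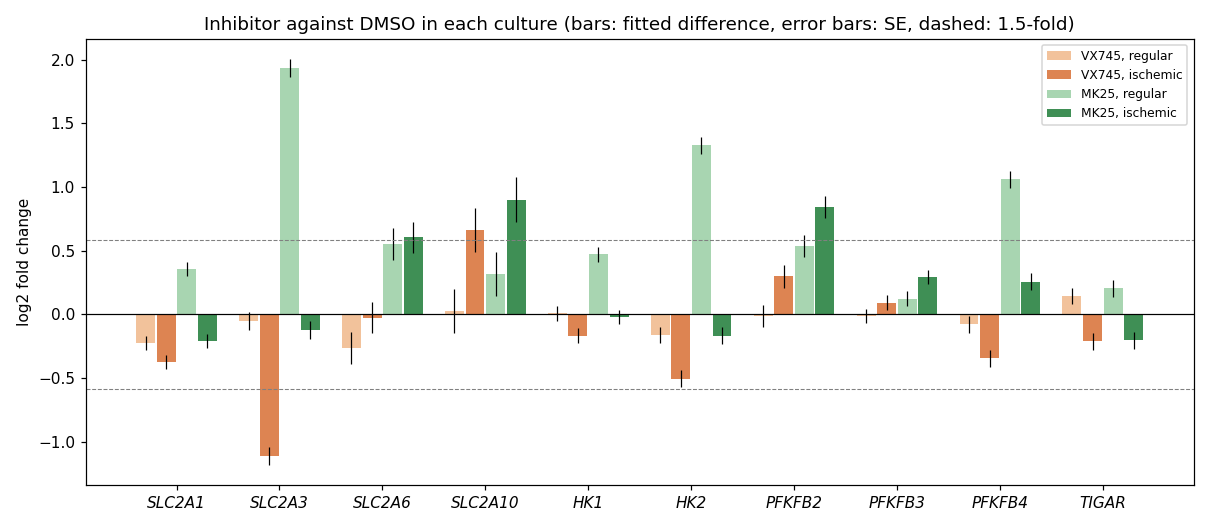
Log2 fold change of each inhibitor against DMSO (vertical axis) for each gene (horizontal axis) in regular (pale) and ischemic (dark) culture, with fitted differences as bars, standard errors as error bars and 1.5-fold as dashed lines. SLC2A3, HK2 and PFKFB4 pass 1.5-fold with MK25 in regular culture, at 1.93, 1.33 and 1.06, and SLC2A3 falls with VX745 in ischemic culture, at −1.11.

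In ischemic culture MK25 raised *PFKFB2*, *SLC2A10* and *SLC2A6* by these criteria (3 of 10 higher and 0 lower, with 7.02% of all genes called higher and 2.65% lower). None of these 3 had an MK25 interaction at an adjusted p under 0.05, so their MK25 effect was not shown to differ between the cultures. In regular culture *PFKFB2* and *SLC2A6* had also risen, short of the fold criterion. *PFKFB2* was at 4.98 and 5.06 log2 CPM with MK25 and 4.27 and 4.09 with DMSO, a log2 difference of 0.84 (SE 0.09, adjusted p = 1.33e-06). *SLC2A10* was at 3.25 and 3.23 against 2.38 and 2.29, a difference of 0.90 (SE 0.17, adjusted p = 5.50e-04). The groups of both genes were separate. Of the further transporters, *SLC2A12* rose by 1.53 (SE 0.32, adjusted p = 9.63e-04).

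*SLC2A6* was at 3.38 and 3.36 log2 CPM against 2.63 and 2.90, a log2 difference of 0.60 (SE 0.12, adjusted p = 9.61e-04) that was not called without ischemic DMSO replicate 1 (0.47) or after quantile normalization (0.47). *SLC2A3* was not called, at 8.12 and 8.17 against 8.26 and 8.27, with an interval of −0.27 to 0.02. *HK2* was not called either, with an interval of −0.31 to −0.03. The adjusted p alone was passed by *SLC2A1* (−0.21), *PFKFB4* (0.26), *PFKFB3* (0.29) and *TIGAR* (−0.21), and 41.7% of all genes passed it at any fold change. Without ischemic DMSO replicate 2 the difference of *PFKFB4* was 0.18. With VX745 in ischemic culture *PFKFB4* had gone the other way (−0.35). After quantile normalization the differences of *SLC2A1*, *SLC2A3*, *HK1* and *HK2*, all below 0 as deposited, were above 0, and 56.4% of the genes called were higher, against 72.6% as deposited.

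The MK25 effect differed between the cultures for *SLC2A3*, *HK2* and *PFKFB4*, for which the interaction was called lower (3 of 10 lower and 0 higher, with 4.41% of all genes called higher and 3.53% lower). The log2 value was −2.06 (SE 0.10, adjusted p = 1.02e-09) for *SLC2A3*. It was −1.50 (SE 0.09, adjusted p = 1.07e-08) for *HK2* and −0.80 (SE 0.09, adjusted p = 1.46e-05) for *PFKFB4*. Of the 16 enzymes after hexokinase, 6 had a called interaction with MK25 and all 6 were lower, *ALDOC* at −1.38 and *ENO2* at −0.92 among them. *MYC* fell by 1.20 (SE 0.08, adjusted p = 8.31e-09) with MK25 in ischemic culture.

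Set against each other, the inhibitors differed for *SLC2A3* in both cultures. In ischemic culture MK25 libraries were higher than VX745 libraries by 0.99 (SE 0.07, adjusted p = 2.00e-08) for *SLC2A3*, by 0.63 (SE 0.12, adjusted p = 0.00157) for *SLC2A6* and by 0.60 (SE 0.07, adjusted p = 4.35e-06) for *PFKFB4* on the log2 scale (3 of 10 higher and 0 lower, with 1.75% of all genes called higher and 2.2% lower). Without ischemic VX745 replicate 2 only *SLC2A3* was called. In regular culture 4 of 10 were called higher and 0 lower, with 1.23% of all genes higher and 0.228% lower. The log2 differences were 1.99 for *SLC2A3*, 1.49 for *HK2*, 1.14 for *PFKFB4* and 0.82 for *SLC2A6*.

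The family shares moved with MK25 in regular culture and with VX745 in ischemic culture. *HK2* held 38.8% ± 1.41 of the hexokinase level with MK25 in regular culture, above the 25.9% ± 0.439 with DMSO, and 59.0% ± 0.852 with VX745 in ischemic culture, below the 64.6% ± 0.403 with DMSO. *PFKFB4* held 60.8% ± 2.11 of the PFKFB level with MK25 in regular culture, and *PFKFB3* 33.4% ± 2.26. So *PFKFB4* already held the largest share there. *SLC2A3* held 5.46% ± 0.0801 of the transporter level with MK25 in regular culture and 10.2% ± 0.683 with VX745 in ischemic culture. With the length of all exons joined, *HK2* held 50.9% with MK25 in regular culture and so passed *HK1* there.

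The order of the 6 groups of the second experiment was alike for several members, as a description. For *SLC2A1*, *SLC2A3* and *HK2* the level fell from ischemic DMSO through ischemic MK25, ischemic VX745 and regular MK25 to the other regular groups. Neighbours in this order did not overlap, except regular DMSO and regular VX745 for *SLC2A3*. *HK1* had the same first 4 groups, but ischemic DMSO and ischemic MK25 overlapped, as did regular VX745 and regular DMSO. After quantile normalization ischemic MK25 lay above ischemic DMSO for *SLC2A1* (0.045), *SLC2A3* (0.027), *HK2* (0.088) and *HK1* (0.21). The first step of this order therefore depends on the normalization. *PFKFB4* and *PFKFB3* were highest with MK25 in ischemic culture, at 9.66 and 7.57 log2 CPM, and *TIGAR* was highest with MK25 in regular culture, at 5.77. For *SLC2A10* the 3 regular groups overlapped in a chain. For *SLC2A6* 4 neighbouring pairs overlapped, and only ischemic MK25 and regular DMSO stood apart.

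The genes most like the 4 members of widest range were sought by Pearson's r over the 12 libraries of the second experiment among 10035 genes. *KDM3A* (r = 0.997), *P4HA1* (0.997) and *DCAF11* (0.996) were most like *SLC2A3*, and *P4HA1*, *BHLHE40* and *KDM3A* (0.998 each) most like *HK2*. *ENO2* was most like *PFKFB4* (0.998), followed by *POFUT4* (0.998) and *TMEM45A* (0.997), and *WARS1* (0.998), *PTGS2* and *VEGFA* (0.997 each) were most like *SLC2A1*. The libraries fall into 2 cultures, and between 593 and 976 genes had an r above 0.95 with these members, so such values are common here.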

How the data were processed

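RNA from LN229 cells was sequenced by the authors, who trimmed the reads, aligned them to GRCh38 with HISAT2 in Galaxy, and tested differences with edgeR. They deposited log2 normalized CPM per library, with genes listed by Entrez identifier (99.4% and 99.3% matched a symbol). The counting program is not given in the sources used here. Undoing the logarithm gave whole reads for 100% of values (tolerance 0.1 read), which gives the depth. Reads are not independent molecules.

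Since the deposited values are log2, they were tested as deposited with limma 3.58.1 (R 4.3.3, variance trend, 1 mean per group, all 6 groups of the second experiment in 1 fit), adjusted by Benjamini-Hochberg over all genes of a comparison. P-values are two-sided and intervals are 95%. The test was checked on simulated data for untreated ischemic against regular culture and for MK25 against DMSO in ischemic culture. At a simulated log2 difference of 1 it recovered 93% and 96% of the changed genes, and at 2 it recovered 100% in both. Every gene had the same simulated dispersion (spread between libraries beyond counting noise). Smaller differences, the interactions and the spread of the real libraries were therefore not checked. The fit of 12 comparisons includes MK25 against VX745 in regular culture, added after seeing the data. Columns were matched to replicates by the numbers in their headers.

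Transcript lengths are from GENCODE v44 in place of RefSeq, whose transcripts were not used here. All 10 members are named. From each list, up to 3 called genes of largest change per comparison were named, and *PFKM*, *G6PC3* and *LDHA* were named after their values were seen. The most alike genes have a mean of at least 3 log2 CPM. Members and lists were chosen with earlier results of these data known. Alternatives were other fold thresholds, a mean of at least 1 CPM, median centring, quantile normalization, no trend, voom on recovered reads, a replicate block, only the groups compared, each library left out and other lengths. The length of the MANE Select transcript was chosen after seeing the data. Figures were made with Python 3.11.15 and matplotlib 3.10.9.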

Additional observations from a re-analysis of the deposited data

Results flagged for a closer look

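Some members responded to an inhibitor differently in the 2 cultures, by the interaction term of limma at an adjusted p under 0.05, which 24.4% of all genes passed for MK25 and 11.8% for VX745. The values are the log2 response in ischemic culture minus that in regular culture. For MK25 the value was −2.06 (SE 0.10, adjusted p = 1.02e-09) for *SLC2A3*, −1.50 (SE 0.09, adjusted p = 1.07e-08) for *HK2* and −0.80 (SE 0.09, adjusted p = 1.46e-05) for *PFKFB4*, which also reached 1.5-fold. It was −0.57 (SE 0.08, adjusted p = 5.45e-05) for *SLC2A1*, −0.49 (SE 0.08, adjusted p = 3.65e-04) for *HK1* and −0.41 (SE 0.09, adjusted p = 0.00409) for *TIGAR*, which did not reach it. After quantile normalization it was −0.35 for *SLC2A1* and −0.28 for *HK1*. For VX745 the value was −1.06 (SE 0.10, adjusted p = 1.02e-05) for *SLC2A3*, which reached 1.5-fold, and −0.34 (SE 0.09, adjusted p = 0.0255) for *HK2* and −0.36 (SE 0.09, adjusted p = 0.0201) for *TIGAR*, which did not. The last 2 did not hold throughout. That of *HK2* was −0.0900 (adjusted p = 0.623) after quantile normalization, had an adjusted p of 0.112 without a variance trend, and was above 0.05 in 6 of 8 cases with a library left out (up to 0.108). That of *TIGAR* had an adjusted p of 0.0587 without a variance trend and was above 0.05 in 4 of 8 cases with a library left out (up to 0.122). Both interactions rest on the same DMSO libraries. The share of the most abundant genes was higher in each ischemic library of the second experiment than in any regular one, while the depths overlapped, and their part in these values was not tested.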

How the results depend on the processing

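Of 1390 log2 differences recomputed under an alternative, 1339 kept their direction and their side of the criteria, 11 lost a call, 12 gained one and 28 changed sign, none of which was called before or after. The number of members called moved most with the fold threshold. At any fold change it was 7 for MK25 against DMSO in ischemic culture (41.7% of all genes) and in regular culture (12.2%). It was also 7 for MK25 against VX745 in ischemic (18.4%) and regular culture (5.39%). It was 6 for the MK25 interaction (24.4%), 8 for VX745 against DMSO in ischemic culture (28.9%) and 3 for the VX745 interaction (11.8%). At a fold change of at least 2 it was 0 for MK25 against DMSO and 0 for MK25 against VX745, both in ischemic culture, and 1 for VX745 against DMSO in ischemic culture. At 1.5-fold, quantile normalization left 1 for VX745 against DMSO in ischemic culture. The genes tested were 13559 in untreated cells and 14024 in every other comparison. At 1.5-fold, at any fold and at 2-fold, the genes called in all were 5620, 9540 and 2763 in untreated cells, 5043, 9759 and 2405 with DMSO, 4627, 9340 and 2032 with VX745, 4576, 9418 and 1950 with MK25 between the cultures, 737, 4051 and 193 for VX745, 1356, 5850 and 384 for MK25 against DMSO in ischemic culture, 14, 47 and 6 for VX745, 349, 1712 and 116 for MK25 in regular culture, 555, 2580 and 175 for MK25 against VX745 in ischemic, 205, 756 and 86 in regular culture, 433, 1653 and 113 for the VX745 and 1113, 3424 and 318 for the MK25 interaction. For VX745 in regular culture the 14 became 5 without a trend, with voom or with only the groups compared, and 7 to 143 with a library left out (143 without regular DMSO replicate 1). Without that one MK25 in regular culture had 546 and the VX745 interaction 678, which had 265 without ischemic VX745 replicate 1 and 286 after quantile normalization. Quantile normalization moved the share called higher from 76.2% to 63.6% for the VX745 interaction and from 9 of 14 to 7 of 14 genes for VX745 in regular culture.

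With a library left out, the members called ranged from 7 to 9 in untreated cells, from 7 to 8 for MK25 and stayed at 7 with DMSO and VX745 in the comparisons of cultures, from 1 to 2 for VX745 and from 2 to 3 for MK25 against DMSO in ischemic culture, from 3 to 4 for MK25 in regular culture, from 1 to 4 and from 4 to 6 for MK25 against VX745 in ischemic and regular culture, and from 1 to 2 for the VX745 interaction. The order of the 10 members by level per kilobase held in 0 of 8 groups with joined exons and in 4 with MANE Select lengths. *HK2* was above *HK1* in 4 groups (5 with joined exons) and *PFKFB4* above *PFKFB3* in 5.

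A replicate block left the number of members called as it was in all 12 comparisons (9 in untreated cells and 7 with DMSO, for example). Deviations of same-numbered libraries correlated at −0.094 to 0.128 over 15 pairs of groups in the second experiment and at 0.153 for the 1 pair in the first. These low values do not show that the numbers pair the samples, and they cannot exclude it. Groups of 2 libraries limit the precision, most for genes of few reads (*SLC2A6* and *SLC2A10*).

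Quantile normalization turned the sign of these log2 differences, to 0.21 for *HK1*, 0.088 for *HK2*, 0.045 for *SLC2A1*, 0.027 for *SLC2A3* (MK25 against DMSO in ischemic culture), −0.036 for *SLC2A6* (MK25 by culture interaction), 0.035 for *HK1* (VX745 against DMSO in ischemic culture), 0.0046 for *HK1*, 0.13 for *SLC2A1* (VX745 by culture interaction). With a library left out, the log2 differences that changed sign ranged from −0.25 to 0.024 for *SLC2A6* (DMSO ischemic against regular), −0.047 to 0.0061 for *HK1* (MK25 against DMSO in ischemic culture), −0.055 to 0.069 for *TIGAR* (MK25 against VX745 in ischemic culture), −5.8e-04 to 0.59 for *SLC2A10* (MK25 against VX745 in regular culture), −0.085 to 0.19 for *SLC2A6* (MK25 by culture interaction), −0.16 to 0.11 for *SLC2A6* (VX745 against DMSO in ischemic culture), −0.071 to 0.084 for *HK1*, −0.084 to 0.054 for *PFKFB2*, −0.067 to 0.038 for *PFKFB3*, −0.16 to 0.051 for *SLC2A3*, −0.27 to 0.32 for *SLC2A10* (VX745 against DMSO in regular culture).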
